A study of Mus musculus with 16 samples.

Results

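A set of 10 genes that mark mitral cells or belong to their transcriptional identity was followed through 4 groups of mouse mitral cells. They were Cdhr1, Lbhd2 and Doc2g, the T-box factors Tbx21, Tbr1 and Eomes, the LIM homeobox factors Lhx1 and Lhx5, and the vesicular glutamate transporters Slc17a7 and Slc17a6. Every array probe whose RefSeq accession maps to 1 of these 10 genes was taken, Cdhr1 also under its former symbol Pcdh21 and Lbhd2 under BC048671. This gave 12 of the 55681 gene probes on the array, with 2 probes each for Tbr1 and Eomes and 1 for each of the other 8 genes. Probes were taken by accession and not by any measured value, but the genes had been chosen with earlier results of these data known.

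Mitral cells are the glutamatergic projection neurons of the olfactory bulb. They receive odour input from olfactory sensory neurons in a glomerulus and send their axons to the olfactory cortex. During development the T-box factors Tbr1, Eomes (also called Tbr2) and Tbx21 (also called T-bet) are made in bulb projection neurons, and LIM homeobox factors mark the mitral cell lineage. In the first postnatal week each mitral cell prunes its several primary dendrites until a single one reaches a glomerulus.

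Cells came from the olfactory bulb of ICR mice, an outbred strain, at postnatal day 3 (P3) or postnatal day 6 (P6). Control cells carried pCAG-EYFP, a plasmid that makes the fluorescent protein EYFP from the broadly active CAG promoter, introduced by electroporation in utero at embryonic day 12. Kir2.1 cells carried pCAG-EYFP together with pCAG-Kir2.1, which makes an inwardly rectifying potassium channel that lowers the excitability of neurons. Single fluorescent cells were picked by hand from dissociated bulbs, their cDNA was amplified by 30 cycles of PCR, and 10 amplified cells were mixed into the pool hybridised to an array. Every group had 4 such pools, made from 40 cells. Both groups of each age carried EYFP, so the plasmid that differed between them was pCAG-Kir2.1. How many animals or litters gave the cells of a pool was not stated in the labels, so the p-values measure the spread between pools, which may be partly technical.

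Cells had been kept only when PCR found EYFP and Pcdh21 transcripts, so detection of Cdhr1 in every pool was a condition of the sampling and not a result. In pools of cells, fewer cells that make a transcript and less of it per cell cannot be told apart. All P3 arrays lay on 1 slide and all P6 arrays on another, so slide and age cannot be told apart. On both slides the control arrays lay in row 1 and the Kir2.1 arrays in row 2, so row and plasmid cannot be told apart.

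Between 34.3% and 41.1% of probes per array were well above background by the scanner software's own call. Levels below are log2 of the processed signal after scaling each array, so that 0 is the 75th percentile of the 12103 probes well above background on all 16 arrays. A change is a difference of mean log2 levels from a limma fit of all 16 arrays over 24010 probes that were well above background on at least 4 arrays. A probe was called where the Benjamini-Hochberg adjusted p over these 24010 probes was under 0.05. Pearson correlations between arrays ran from 0.784 to 0.874 within groups and from 0.755 to 0.855 between groups. The spread between pools was wider at P6 (root mean square SD of 1.56 for control pools and 1.55 for Kir2.1 pools) than at P3 (1.21 and 1.37).

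On all 16 arrays 8 of the 12 probes were well above background. These 8 stood for Cdhr1, Tbx21, Eomes (both probes), Slc17a7, Slc17a6 and Doc2g, and for Tbr1 by A_55_P2112584. Lbhd2 was well above background on 14 arrays and Lhx1 on 8. The second Tbr1 probe (A_55_P2405129) and the probe of Lhx5 (A_51_P403564) never rose well above background, with log2 levels of -10.53 to -8.62 and of -10.42 to -8.96. In all, 10 probes for 9 genes thus entered the test, and Lhx5 could not be tested. None of the 12 probes was saturated or marked as an outlier on any array.

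**Figure D1:**
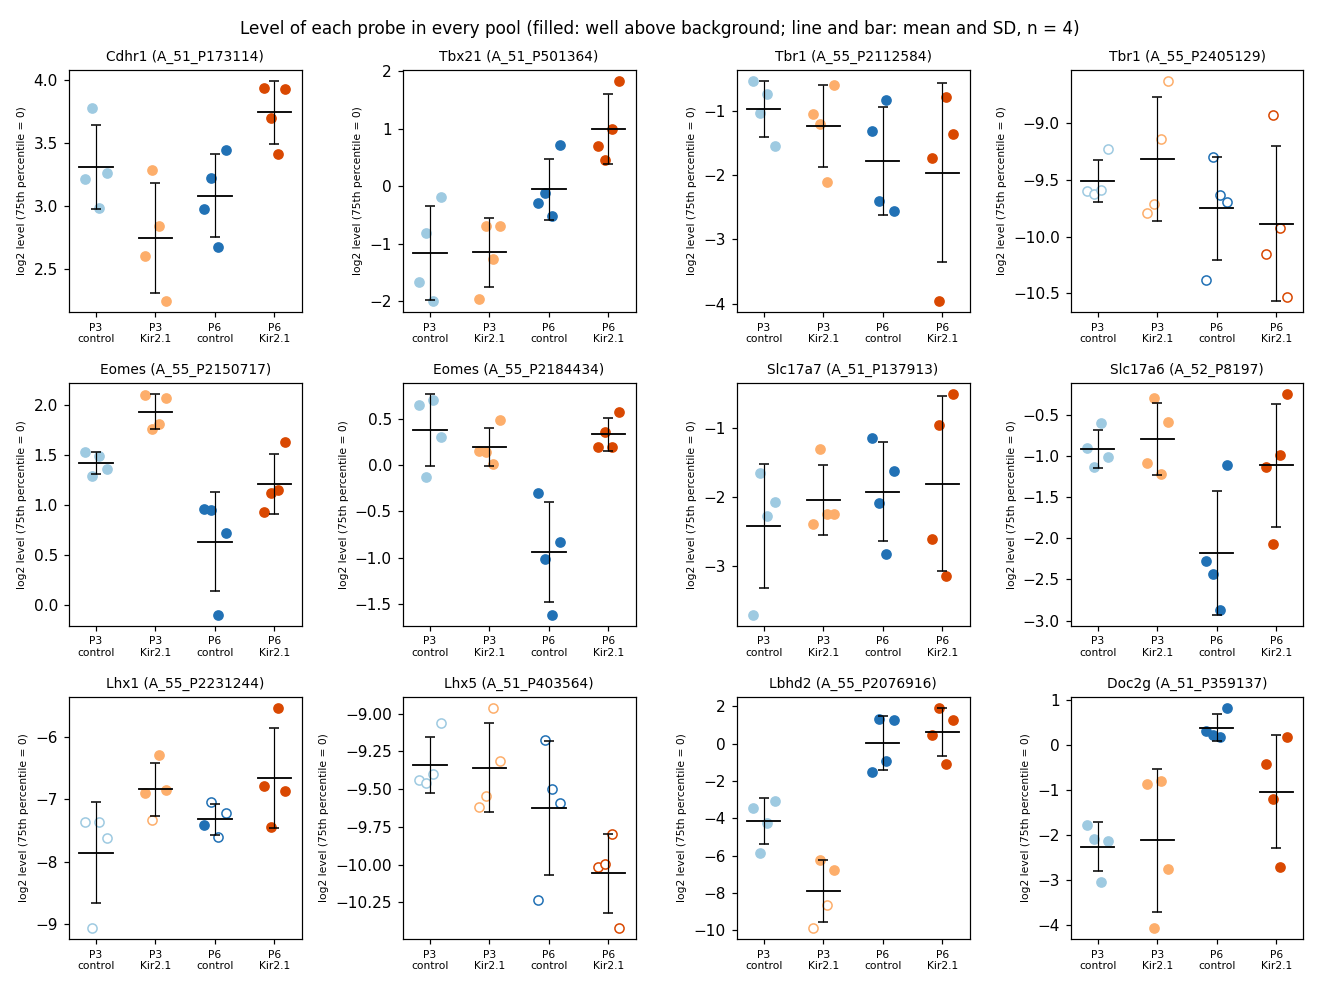
Log2 level (y axis, 0 is the array's 75th percentile) of all 12 probes in each of the 16 pools, by group on the x axis; filled points were well above background, lines and bars are the mean and SD of 4 pools. Lbhd2 lies between -9.89 and -3.07 at P3 and between -1.51 and 1.91 at P6, and Lhx5 and the second Tbr1 probe have open points only.

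The largest member differences lay between the ages. Lbhd2, which codes for a protein with an LBH domain and marks mitral cells in the bulb, was higher at P6 than at P3 with either plasmid set. Tbx21 was higher at P6 in Kir2.1 cells. One of the 2 Eomes probes was lower at P6 in control cells and higher in Kir2.1 than in control cells at P6. The other genes passed no test, although Doc2g stood above all P3 control pools in every P6 control pool.

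In control cells 2 of the 10 tested member probes were called between the ages, 1 higher and 1 lower at P6, against a background of 2.3% of all tested probes (552 of 24010), and 6 of 10 had an unadjusted p under 0.05, as had 4235 of all probes. In Kir2.1 cells 2 of 10 were called, both higher at P6, against 0.833% (200 of 24010), with 4 of 10 members and 3487 of all probes under an unadjusted p of 0.05. Between Kir2.1 and control cells 1 of 10 was called at P6, higher with Kir2.1, against 1.61% (386 of 24010), with 5 of 10 members and 4114 of all probes under an unadjusted p of 0.05. At P3 none of the 10 was called, against 0.0125% (3 of 24010), and 2 of the 10 had an unadjusted p under 0.05, as had 1555 of all probes. No member passed the test of the interaction, the difference between the Kir2.1 effects at P6 and P3, where 0.0875% of probes were called (21 of 24010) and 3 members and 2506 of all probes had an unadjusted p under 0.05. A p that misses the threshold does not show that levels were alike, and the 95% intervals below give the range of changes that the data allow.

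**Figure D2:**
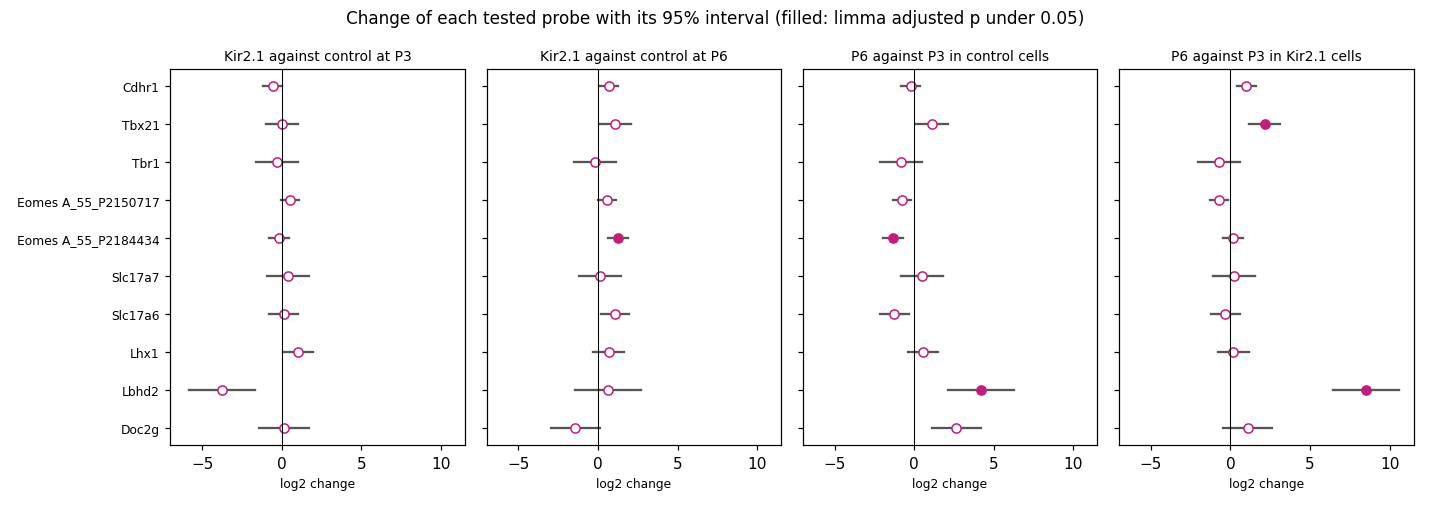
Log2 change (x axis) of the 10 tested probes in 4 comparisons, each with its 95% interval; filled points had a limma adjusted p under 0.05. Lbhd2 in Kir2.1 cells has the largest change, 8.54, and the intervals of most other points include 0.

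Counted another way, 4 of the 10 member probes had age groups that did not overlap in control cells, against 12.5% of all probes. These were both Eomes probes (lower at P6), Lbhd2 and Doc2g (higher at P6). In Kir2.1 cells 4 of 10 did not overlap between the ages, against 10.3%, with Cdhr1, Tbx21 and Lbhd2 higher at P6 and Eomes A_55_P2150717 lower. At P3, 3 of 10 did not overlap between Kir2.1 and control, against 6.76%, namely Eomes A_55_P2150717 and Lhx1 (higher with Kir2.1) and Lbhd2 (lower). At P6 it was 1 of 10, Eomes A_55_P2184434, against 8.75%. Lhx1 was well above background in 0 of 4 P3 control and 1 of 4 P6 control pools, so it entered the test through Kir2.1 pools. Its closest P3 pools, Kir2.1 pool 2 (-7.33) and control pool 1 (-7.36), were both not well above background. The place of Lhx1 in the P3 count thus rests on values near background.

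The RefSeq promoter windows of the 3 members whose mean rose most between the ages in either plasmid group are shown here because those rises lead the results. Each window is 300 bases around the start of the gene in GRCm38.p6, written 5′ to 3′ on the gene's strand. Lbhd2 lies at chr12:111406559-111406858 (plus strand), Tbx21 at chr11:97115282-97115581 (minus strand) and Doc2g at chr19:4003135-4003434 (plus strand). Capitals mark the only matches to 3 searched motifs.
Lbhd2: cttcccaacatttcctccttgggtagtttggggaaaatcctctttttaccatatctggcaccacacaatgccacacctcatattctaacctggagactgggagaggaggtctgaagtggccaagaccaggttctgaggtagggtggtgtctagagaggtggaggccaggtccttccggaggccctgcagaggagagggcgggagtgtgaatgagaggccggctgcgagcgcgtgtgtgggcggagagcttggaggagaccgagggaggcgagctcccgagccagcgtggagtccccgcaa
Tbx21: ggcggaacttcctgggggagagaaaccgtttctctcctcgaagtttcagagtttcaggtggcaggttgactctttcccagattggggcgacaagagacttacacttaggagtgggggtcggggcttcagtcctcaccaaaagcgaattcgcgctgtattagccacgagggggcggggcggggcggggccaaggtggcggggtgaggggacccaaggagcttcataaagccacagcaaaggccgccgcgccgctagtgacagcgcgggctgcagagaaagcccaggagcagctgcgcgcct
Doc2g: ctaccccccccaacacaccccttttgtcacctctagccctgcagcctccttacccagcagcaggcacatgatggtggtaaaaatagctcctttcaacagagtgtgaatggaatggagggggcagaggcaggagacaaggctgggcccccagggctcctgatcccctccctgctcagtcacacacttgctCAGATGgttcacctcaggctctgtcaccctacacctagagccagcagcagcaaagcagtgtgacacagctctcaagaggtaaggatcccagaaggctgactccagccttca

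The motifs were searched on both strands and do not overlap one another. They were GGTGTGA, a T-box half-site found in 3.98% of 32841 RefSeq promoter windows, TAATTA, a LIM homeodomain core found in 5.29%, and CAGATG, a proneural E-box found in 17.2%. RefSeq windows were at hand for 9 of the 10 genes, 10 windows in all since Slc17a6 has 2; Lhx5 was not among them. No window held the T-box half-site. Tbr1 held TAATTA in 2 places, the second window of Slc17a6 held TAATTA and CAGATG once each, and Doc2g held CAGATG once. The windows of Cdhr1, Tbx21, Eomes, Slc17a7, Lhx1 and Lbhd2 held none of these letters. A match is a description of the sequence and not of binding.

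Lbhd2 (A_55_P2076916) read -3.43, -5.87, -4.23 and -3.07 in P3 control pools 1 to 4. In the P3 Kir2.1 pools it read -9.89, -6.24, -8.66 and -6.80, and only pools 2 and 4 were well above background. At P6 it read -1.51, 1.30, -0.92 and 1.28 in control pools and 0.44, 1.91, -1.08 and 1.29 in Kir2.1 pools. All 8 P6 pools lay above all 8 P3 pools, and at P3 every Kir2.1 pool lay below every control pool, while the P6 groups overlapped throughout.

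The mean log2 level of Lbhd2 at P3 was -4.15 ± 1.25 (SD, n = 4) in control and -7.90 ± 1.68 in Kir2.1 cells, and at P6 it was 0.04 ± 1.46 and 0.64 ± 1.30. In Kir2.1 cells it rose with age by 8.54 on the log2 scale (SE 0.96, 95% interval 6.46 to 10.6, limma adjusted p = 0.00241). This call held in all 11 alternative settings and in all 16 fits that left out 1 pool, but with normexp background correction the change was 5.38. In all, 2 of the P3 Kir2.1 signals behind it were not well above background. In control cells Lbhd2 rose by 4.19 (SE 0.96, 95% interval 2.12 to 6.26, 18.2-fold, limma adjusted p = 0.0402). That call was lost without any 1 of 8 pools, with adjusted p of 0.0745, 0.104, 0.0985 and 0.0573 without P3 control pools 1 to 4. Without P6 control pool 2 or 4 it was 0.0799 or 0.0984, and leaving out pool 1 or 4 of P6 Kir2.1 gave 0.0517 or 0.0526. It was also lost with no filter on dim probes (adjusted p = 0.0731) and with the arrays of the comparison fitted alone (0.0833).

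The Kir2.1 difference of Lbhd2 at P3 was -3.75 (SE 0.96, 95% interval -5.82 to -1.67), with a limma adjusted p of 0.38, and it was -1.31 with normexp background correction. At P6 the difference was 0.60 (95% interval -1.47 to 2.67, adjusted p = 0.798). The interaction came to 4.35 (95% interval 1.42 to 7.28, adjusted p = 0.26), so a different Kir2.1 effect at the 2 ages was not established for Lbhd2.

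Doc2g codes for a member of the double C2 domain family, relatives of which bind phospholipids at release sites, and its transcript is used as a marker of mitral and tufted cells. Its probe (A_51_P359137) read -1.77, -2.08, -3.04 and -2.13 in P3 control pools and 0.32, 0.23, 0.17 and 0.83 in P6 control pools. In P3 Kir2.1 pools it read -0.86, -4.06, -0.79 and -2.74, and in P6 Kir2.1 pools -0.41, -1.19, -2.71 and 0.19. Control pools were tight and separate between the ages, while the Kir2.1 pools were spread over several log2 units and overlapped.

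Doc2g was higher by 2.64 in P6 than in P3 control cells (SE 0.72, 95% interval 1.10 to 4.19, 6.25-fold), with a limma adjusted p of 0.0731. It fell under the threshold with normexp (0.0436), with an intensity trend in the prior variance (0.0478) and with the arrays of the comparison alone (0.0235). The same happened without P3 Kir2.1 pool 2 (0.0449) or P6 Kir2.1 pool 3 (0.0499). In Kir2.1 cells the age difference was 1.08 (95% interval -0.47 to 2.62, adjusted p = 0.535). Kir2.1 against control gave 0.15 at P3 (95% interval -1.40 to 1.69, adjusted p = 0.99) and -1.42 at P6 (-2.97 to 0.13, adjusted p = 0.332).

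Cdhr1, a cadherin-related membrane protein and the gene by which cells were kept, read 3.22, 3.78, 2.99 and 3.26 in P3 control pools and 2.61, 3.28, 2.84 and 2.25 in P3 Kir2.1 pools. At P6 it read 2.98, 3.23, 2.68 and 3.45 in control pools and 3.94, 3.70, 3.41 and 3.93 in Kir2.1 pools. Within Kir2.1 cells every P6 pool lay above every P3 pool, and the other comparisons overlapped. That age difference was 1.00 (SE 0.28, 95% interval 0.40 to 1.60, limma adjusted p = 0.12), and it passed only with an intensity trend in the prior variance (0.0472). Kir2.1 against control was -0.56 at P3 (95% interval -1.17 to 0.04, adjusted p = 0.806) and 0.66 at P6 (0.06 to 1.26, adjusted p = 0.246). Their difference, the interaction, was 1.23 (95% interval 0.38 to 2.08, adjusted p = 0.274). In control cells the age difference of Cdhr1 was -0.23 (95% interval -0.83 to 0.37, adjusted p = 0.729).

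Among the T-box factors, Tbx21 (A_51_P501364) is made in mitral and tufted cells of the bulb and is best known for its part in T helper cells. It read -1.66, -0.81, -2.0 and -0.18 in P3 control pools and -1.96, -0.69, -1.27 and -0.69 in P3 Kir2.1 pools. At P6 it read -0.30, -0.12, -0.52 and 0.71 in control pools and 0.70, 0.45, 0.99 and 1.84 in Kir2.1 pools. The P3 groups covered the same range, the P6 control pools stood above most of them, and all 4 P6 Kir2.1 pools lay above all P3 pools.

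In Kir2.1 cells Tbx21 rose with age by 2.15 (SE 0.46, 95% interval 1.15 to 3.14, 4.43-fold, limma adjusted p = 0.0494). The call was close to the threshold and rested on single pools, since it held only without P3 control pool 3 (0.0499) or 4 (0.0422) and was lost in the other 14 such fits (0.051 to 0.118). It was lost with quantile normalization (0.0662), with no filter on dim probes (0.0703) and with the arrays of the comparison alone (0.139). In control cells the age difference was 1.11 (95% interval 0.11 to 2.1, adjusted p = 0.231). Kir2.1 against control was 0.01 at P3 (95% interval -0.98 to 1.00, adjusted p = 1.00) and 1.05 at P6 (0.06 to 2.04, adjusted p = 0.264). The interaction of Tbx21 was 1.04 (95% interval -0.36 to 2.45, adjusted p = 0.624), so the age changes of control and Kir2.1 cells were not shown to differ.

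Eomes, a T-box factor of intermediate progenitors and of bulb projection neurons, was read by 2 probes that did not move alike. Probe A_55_P2184434 read 0.66, -0.13, 0.70 and 0.30 in P3 control pools and 0.15, 0.14, 0.01 and 0.49 in P3 Kir2.1 pools. It read -0.30, -1.02, -1.62 and -0.83 in P6 control pools and 0.20, 0.36, 0.20 and 0.58 in P6 Kir2.1 pools. The P6 control group alone stood apart, below every other pool.

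By this probe Eomes fell by 1.33 between P3 and P6 in control cells (SE 0.29, 95% interval of the change -1.95 to -0.70, 2.51-fold, limma adjusted p = 0.0317). It was 1.28 higher in Kir2.1 than in control cells at P6 (SE 0.29, 95% interval 0.66 to 1.90, 2.43-fold, limma adjusted p = 0.0444). The age call was lost without P3 control pool 1, 3 or 4 (0.0952, 0.0979 and 0.0683) and without P6 control pool 2, 3 or 4 (0.0547, 0.0566 and 0.0609). The Kir2.1 call held without P3 control pool 2 (0.049) or P6 control pool 1 (0.0252) and was lost without any 1 of the other 14 pools (0.056 to 0.0956). Both calls were lost with no filter on dim probes (0.0538 and 0.0707) and with the arrays of each comparison alone (0.149 and 0.259). In Kir2.1 cells the age difference was 0.14 (95% interval -0.48 to 0.76, adjusted p = 0.87), and the interaction was 1.46 (0.58 to 2.34, adjusted p = 0.21).

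The brighter Eomes probe, A_55_P2150717, read 1.53, 1.29, 1.49 and 1.36 in P3 control pools and 2.1, 1.76, 1.80 and 2.06 in P3 Kir2.1 pools. At P6 it read 0.96, 0.95, -0.10 and 0.72 in control pools and 0.93, 1.12, 1.14 and 1.63 in Kir2.1 pools. The P3 Kir2.1 pools lay above all P3 control pools, and P6 pools of each plasmid group lay below the P3 pools of the same group. None of these differences was called. The age difference was -0.78 in control cells (95% interval -1.35 to -0.22, adjusted p = 0.137) and -0.73 in Kir2.1 cells (-1.29 to -0.16, adjusted p = 0.221). Kir2.1 against control was 0.51 at P3 (95% interval -0.05 to 1.08, adjusted p = 0.814) and 0.57 at P6 (0.01 to 1.13, adjusted p = 0.282).

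Tbr1, a T-box factor of deep-layer cortical and bulb projection neurons, read -0.55, -1.04, -0.74 and -1.54 in P3 control pools by A_55_P2112584. In Kir2.1 pools of the same age it read -1.06, -1.20, -2.11 and -0.60. The P6 pools read -1.32, -2.40, -0.84 and -2.56 (control) and -1.74, -3.96, -0.79 and -1.36 (Kir2.1). All groups overlapped, and P6 Kir2.1 pool 2 was the lowest of the 16. The age difference was -0.81 in control cells (95% interval -2.14 to 0.51, adjusted p = 0.541) and -0.72 in Kir2.1 cells (-2.04 to 0.60, adjusted p = 0.643). Kir2.1 against control was -0.27 at P3 (95% interval -1.60 to 1.05, adjusted p = 0.977) and -0.18 at P6 (-1.51 to 1.14, adjusted p = 0.915).

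The LIM homeobox factors, which mark the mitral cell lineage in the developing bulb, were dim. Lhx1 (A_55_P2231244) was well above background in 0 of 4 control and 3 of 4 Kir2.1 pools at P3, and in 1 of 4 and 4 of 4 at P6. Its levels were -7.36, -9.07, -7.37 and -7.63 in P3 control and -6.90, -7.33, -6.29 and -6.84 in P3 Kir2.1 pools. At P6 they were -7.41, -7.04, -7.61 and -7.21 in control and -6.78, -7.45, -5.53 and -6.86 in Kir2.1 pools. Lhx1 was thus above background in 7 of 8 Kir2.1 pools and in 1 of 8 control pools, a count chosen after the values were seen and given with no test.

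Because no P3 control pool was above background, the Kir2.1 difference of Lhx1 at P3 has no measured size. Each control array was set at the higher of its own Lhx1 value and the lowest signal well above background, which put the P3 Kir2.1 mean at least 1.36-fold higher (measured means -6.84 and -7.86). In that mean 1 of the 4 Kir2.1 pools was itself not well above background. The fitted difference was 1.02 (95% interval 0.06 to 1.98) with a limma adjusted p of 0.742, and with normexp it was 0.05, so a higher level of Lhx1 was not established. At P6 the Kir2.1 difference was 0.67 (95% interval -0.29 to 1.62, adjusted p = 0.471), and it turned to -0.15 with normexp. Between the ages it was 0.19 in Kir2.1 cells (95% interval -0.77 to 1.14, adjusted p = 0.89). For control cells no age fold is given, since the bound came out under 1. The fitted age difference there was 0.54 (95% interval -0.42 to 1.49, adjusted p = 0.584).

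Both vesicular glutamate transporters were above background in every pool. Slc17a6 (VGLUT2, A_52_P8197), which loads glutamate into synaptic vesicles early in development, read -0.91, -1.13, -0.60 and -1.02 in P3 control pools and -1.09, -0.29, -1.22 and -0.59 in P3 Kir2.1 pools. At P6 it read -2.28, -2.43, -2.87 and -1.11 in control pools and -1.14, -2.07, -0.99 and -0.25 in Kir2.1 pools. In the data of Slc17a6, P6 control pools 1, 2 and 3 were the lowest of the 16, and pool 4 lay within the P3 range. The age difference in control cells was -1.26 (95% interval -2.16 to -0.36, adjusted p = 0.137) and the Kir2.1 difference at P6 was 1.06 (0.16 to 1.96, adjusted p = 0.216). In Kir2.1 cells the age difference was -0.32 (95% interval -1.22 to 0.59, adjusted p = 0.783), and at P3 the Kir2.1 difference was 0.12 (-0.79 to 1.02, adjusted p = 0.987).

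Slc17a7 (VGLUT1, A_51_P137913), the transporter of most mature cortical glutamatergic terminals, read -3.71, -1.65, -2.28 and -2.07 in P3 control pools and -2.39, -1.30, -2.26 and -2.25 in P3 Kir2.1 pools. At P6 it read -1.16, -2.10, -2.83 and -1.63 in control pools and -2.62, -0.96, -3.15 and -0.51 in Kir2.1 pools. All 4 groups overlapped. The age difference was 0.50 in control cells (95% interval -0.82 to 1.82, adjusted p = 0.729) and 0.24 in Kir2.1 cells (-1.08 to 1.56, adjusted p = 0.898). Kir2.1 against control was 0.38 at P3 (95% interval -0.94 to 1.70, adjusted p = 0.962) and 0.12 at P6 (-1.20 to 1.44, adjusted p = 0.949).

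By group mean, the order of the 4 groups differed between members. Lbhd2 and Tbx21 were highest in P6 Kir2.1 and next in P6 control cells, and in both genes those P6 groups overlapped; the P3 groups of Tbx21 overlapped too, those of Lbhd2 did not. Cdhr1 was highest in P6 Kir2.1 cells, followed by P3 control, P6 control and P3 Kir2.1 cells, each overlapping its neighbour. Doc2g was highest in P6 control cells, followed by P6 Kir2.1 cells, and each group overlapped its neighbour in the order. Eomes A_55_P2150717 was highest in P3 Kir2.1 and lowest in P6 control cells. Slc17a6 was also lowest in P6 control cells, where its range overlapped that of P6 Kir2.1 cells.

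Differences between 2 members on the same array do not depend on the scaling of that array. A total of 4 such pairs were chosen after the values were seen, so they are described with no test. The signal of Lbhd2 relative to Cdhr1, the gene on which cells were kept, went from -7.46 ± 1.51 at P3 to -3.05 ± 1.21 at P6 in control cells (SD, n = 4). In Kir2.1 cells it went from -10.6 ± 1.63 to -3.11 ± 1.16. Neither pair of age groups overlapped.

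The difference of Tbx21 and Tbr1 went from 0.09 ± 0.76 at P3 to 2.96 ± 1.13 at P6 in Kir2.1 cells without overlap. In control cells it went from -0.19 ± 1.24 to 1.72 ± 1.31, with overlap. The difference of Slc17a7 and Slc17a6 went from -1.51 ± 0.98 to 0.25 ± 0.68 in control cells without overlap, and from -1.25 ± 0.30 to -0.70 ± 1.44 in Kir2.1 cells. Each of these is a change in a difference between probes, which does not say which of the 2 transcripts is more abundant.

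The disagreement of the Eomes probes was the tightest of these measures. The difference of A_55_P2150717 and A_55_P2184434 at P3 was 1.03 ± 0.28 in control and 1.73 ± 0.17 in Kir2.1 cells, and at P6 it was 1.58 ± 0.29 and 0.87 ± 0.15. Kir2.1 pools were thus higher by 0.70 at P3 and lower by 0.71 at P6, without overlap at either age. The age difference within Kir2.1 cells was -0.86, and within control cells it was 0.54. The Eomes calls above are those of 1 probe, and which transcripts each probe reads was not tested.

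**Figure D3:**
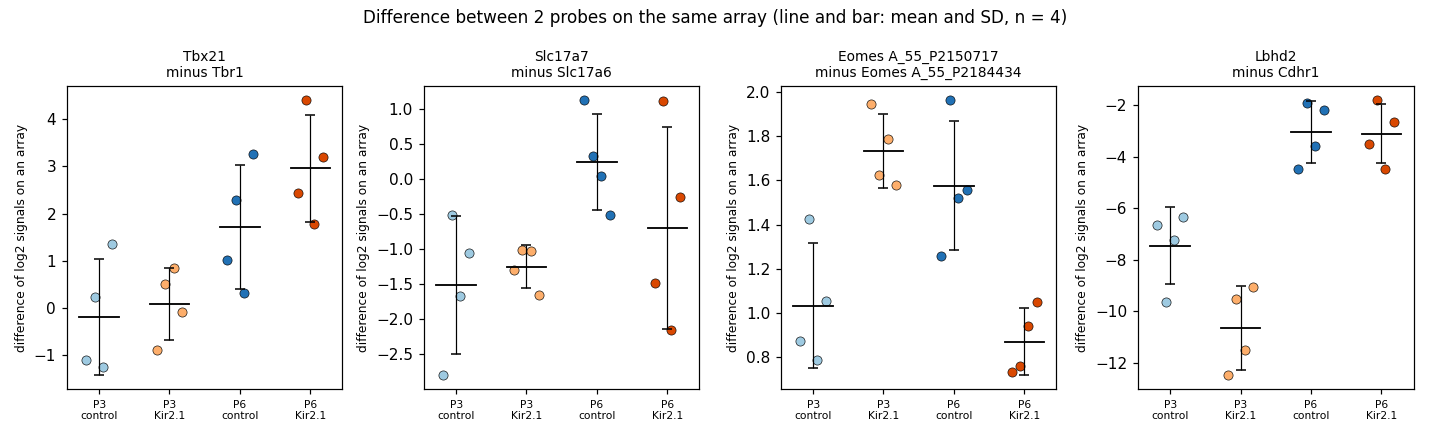
Difference of log2 signals of 2 probes on the same array (y axis) in each pool, by group on the x axis, with the mean and SD of 4 pools. The Eomes probes differ by 1.73 in P3 Kir2.1 and by 0.87 in P6 Kir2.1 cells, and Lbhd2 relative to Cdhr1 is higher in all P6 pools than in all P3 pools.

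As a set, the tested members leaned no one way at P3, with 6 of 10 probes higher in Kir2.1 cells, beside 11678 of all 24010. Their median change was 0.06 against -0.02 over all tested probes. At P6, 8 of 10 were higher in Kir2.1 cells, beside 10747 of all 24010, with a median of 0.63 against -0.11 over all probes. Both Eomes probes are among the 10, and with 1 probe per gene it was 7 of 9. Between the ages 5 of 10 were higher at P6 in control cells (median 0.14 against -0.09) and 7 of 10 in Kir2.1 cells (median 0.21 against -0.17). Over all 24010 probes 10997 and 9857 were higher at P6 in these 2 comparisons. Comparisons that share a group, such as Kir2.1 against control at P6 and P6 against P3 in control cells, share its 4 arrays, so P6 control enters them with opposite sign.

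Of 17 other genes reported in mitral and tufted cells 16 were tested, each named here by its brightest tested probe. They had 19 tested probes, of which 0 were called with Kir2.1 at P3 (0.0125% of all probes) and 2 at P6 (1.61%). Between the ages 1 of 19 was called in control cells (2.3%) and 4 of 19 in Kir2.1 cells (0.833%). At P3 none was called, and Id2, an inhibitor of basic helix-loop-helix factors, had the lowest p, with a difference of -2.62 (95% interval -3.80 to -1.43, adjusted p = 0.19). At P6, 1 was called higher and 1 lower with Kir2.1. Reln, the secreted protein reelin, was 3.89 higher (SE 0.74, adjusted p = 0.0223), from -8.24 ± 1.48 in control pools to -4.35 ± 1.55, and it was well above background in only 1 of 4 control pools. Nts, the neuropeptide precursor of neurotensin, fell by 1.80 (SE 0.40, adjusted p = 0.0433), from 0.23 ± 0.49 to -1.57 ± 0.81.

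Between the ages, the called genes of that list were named after their values were seen. In control cells 1 of 16 was called, Thy1, a surface glycoprotein of maturing projection neurons, which rose by 1.84 (adjusted p = 0.0202). In Kir2.1 cells Thy1 rose by 2.04 (adjusted p = 0.0273) and Ntng1, netrin G1, rose by 3.22 (adjusted p = 0.0301). Nts fell by 2.54 (adjusted p = 0.0155) and Tfap2e, an AP-2 transcription factor, fell by 3.82 (adjusted p = 0.032).

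Of 15 transcription factors of the glutamatergic lineage 9 were tested, by 12 probes. With Kir2.1 at P6 1 of the 12 was called, against 1.61% of all probes, and between the ages in control cells 1 of 12, against 2.3%. Emx1, a homeobox factor of the dorsal telencephalon, was 2.41 higher in Kir2.1 than in control cells at P6 (SE 0.44, adjusted p = 0.0193), from -3.22 ± 0.78 to -0.81 ± 0.57. It fell by 2.31 between P3 and P6 in control cells (adjusted p = 0.0171, named after its values were seen), so that P6 control again stood apart. At P3 none was called, against 0.0125% of all probes, and Neurod2 had the lowest p (log2 change of 0.85, adjusted p = 0.872). Of 14 other T-box factors only 3 were tested. None of the 3 was called with Kir2.1, against 0.0125% of all probes at P3 and 1.61% at P6. Tbx10 changed by -0.24 at P3 (adjusted p = 0.93) and Tbx22 by -0.68 at P6 (adjusted p = 0.419).

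Of 18 other LIM homeobox factors and LIM cofactors 12 were tested, by 16 probes. With Kir2.1 none of the 16 was called, against 0.0125% of all probes at P3 and 1.61% at P6. Lhx6, known from cortical interneurons, had the lowest p at both ages, with changes of 0.48 at P3 (adjusted p = 0.741) and -0.78 at P6 (adjusted p = 0.0755). Between the ages in control cells 1 of the 16 was called, against 2.3% of all probes. This was Lhx6, with a rise of 1.25 (adjusted p = 0.00831). Of 14 genes of glutamate supply and other vesicular transport 11 were tested, by 15 probes. None of the 15 was called with Kir2.1, against the same shares. Slc17a5, the lysosomal sialic acid transporter sialin, gave 0.61 at P3 (adjusted p = 0.572) and -0.73 at P6 (adjusted p = 0.0788). It rose by 1.40 with age in control cells (adjusted p = 0.00389), the only 1 of 15 probes called there, against 2.3%. Of 6 relatives of Doc2g and Cdhr1 4 were tested, by 4 probes. With Kir2.1 none of the 4 was called at P3 (0.0125% of all probes) and 1 at P6 (1.61%). Between the ages in control cells 1 of the 4 was called (2.3%). Doc2b gave 2.09 at P3 (adjusted p = 0.913), and Cdhr3 was 4.15 higher with Kir2.1 at P6 (adjusted p = 0.0473) and fell by 4.54 with age in control cells (adjusted p = 0.0263). Cdhr3 was well above background in 1 of 4 P6 control pools.

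Markers of other cell types moved with the same comparisons. For 17 markers of olfactory bulb interneurons, levels on the linear scale summed at P3 to 2.30 to 2.82 per control pool and 1.99 to 3.38 per Kir2.1 pool. At P6 the sums were 5.67 to 11.2 per control pool and 2.13 to 3.88 per Kir2.1 pool. The P6 control pools were above all others. Of the 15 tested, 13 had a positive age change in control cells and 4 were called (4 of 18 probes, against 2.3% of all). Among the called were Gad1 (6.23, adjusted p = 0.0477) and Gad2 (6.87, adjusted p = 0.0173), which make the inhibitory transmitter GABA. With Kir2.1 at P6, 14 of 15 had a negative change and 1 was called (1 of 18 probes, against 1.61% of all). This was the opioid peptide precursor Penk, at least 28.4-fold lower (adjusted p = 0.0284). For Penk only 3 of 4 P6 control pools were well above background, so this bound is not strict. Of the other pools, 1 of 4 P3 control pools and 0 of 4 Kir2.1 pools at either age were so. Penk thus passed the filter of 4 arrays only through control pools, the group where it was higher, which limits what its call shows. At P3 none was called, against 0.0125% of all probes, and Meis2 had the lowest p (log2 change of 2.27, adjusted p = 0.384). Gad1 and Gad2 were each well above background in 1 of 4 P3 control pools, in all P6 control pools and in 3 of 4 P6 Kir2.1 pools. In P3 Kir2.1 cells Gad1 was so in 3 of 4 pools and Gad2 in 4 of 4. The mean of Gad2 was -4.06 there and -7.83 in P3 control cells, a difference that was not called. The lower Eomes, Slc17a6 and Emx1 levels of P6 control pools thus came with more interneuron signal, whose part in those results was not tested.

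The 13 markers of astrocytes and radial glia summed at P3 to 3.19 to 6.22 (control) and 4.30 to 11.1 (Kir2.1), and at P6 to 16.8 to 18.4 (control) and 8.32 to 18.7 (Kir2.1). Of 11 tested, 10 had a positive age change in control cells and 2 were called, against 2.3% of all probes. In Kir2.1 cells 8 of 11 were positive and 1 was called, against 0.833%. Sparcl1 was called in both (1.81, adjusted p = 0.00492, and 2.67, adjusted p = 0.00149). No gene of this list was called with Kir2.1, against 0.0125% of all probes at P3 and 1.61% at P6. The lowest p was that of Sparcl1 at P3 (change of -1.19, adjusted p = 0.27) and of Aldh1l1 at P6 (change of -2.30, adjusted p = 0.363). In control cells the sums of the 2 ages did not overlap, beside the age change of Lbhd2, and in Kir2.1 cells they overlapped. The part of this signal in the age changes was not tested.

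The defining markers of other cells are given as the number of the 4 pools well above background, at P3 (control, then Kir2.1) and then at P6 (likewise). For interneurons Slc32a1 was so in 4, 4, 4 and 3 pools. For astrocytes Gfap was so in 0, 2, 3 and 2, and Aqp4 and Aldh1l1 in all 16 pools. For oligodendrocytes Olig2 was so in 3, 0, 3 and 1, and Mbp in all 16. Markers of microglia were seldom above background, with Cx3cr1 in 0, 1, 2 and 0 pools and C1qa in 0, 0, 1 and 0. For vessels Cldn5 was so in 1, 1, 1 and 3 pools and Pecam1 in all 16. In P6 Kir2.1 pools 1 to 4 Cldn5 read 1.54, 1.24, -9.86 and -8.10. Omp, of olfactory sensory neurons, was so in 1, 2, 4 and 3 pools. Of the dividing cell genes Mki67 was so in 2, 3, 1 and 3 pools and Top2a in 0, 0, 0 and 1. Signal of some of these markers was thus seen in all groups.

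**Figure D4:**
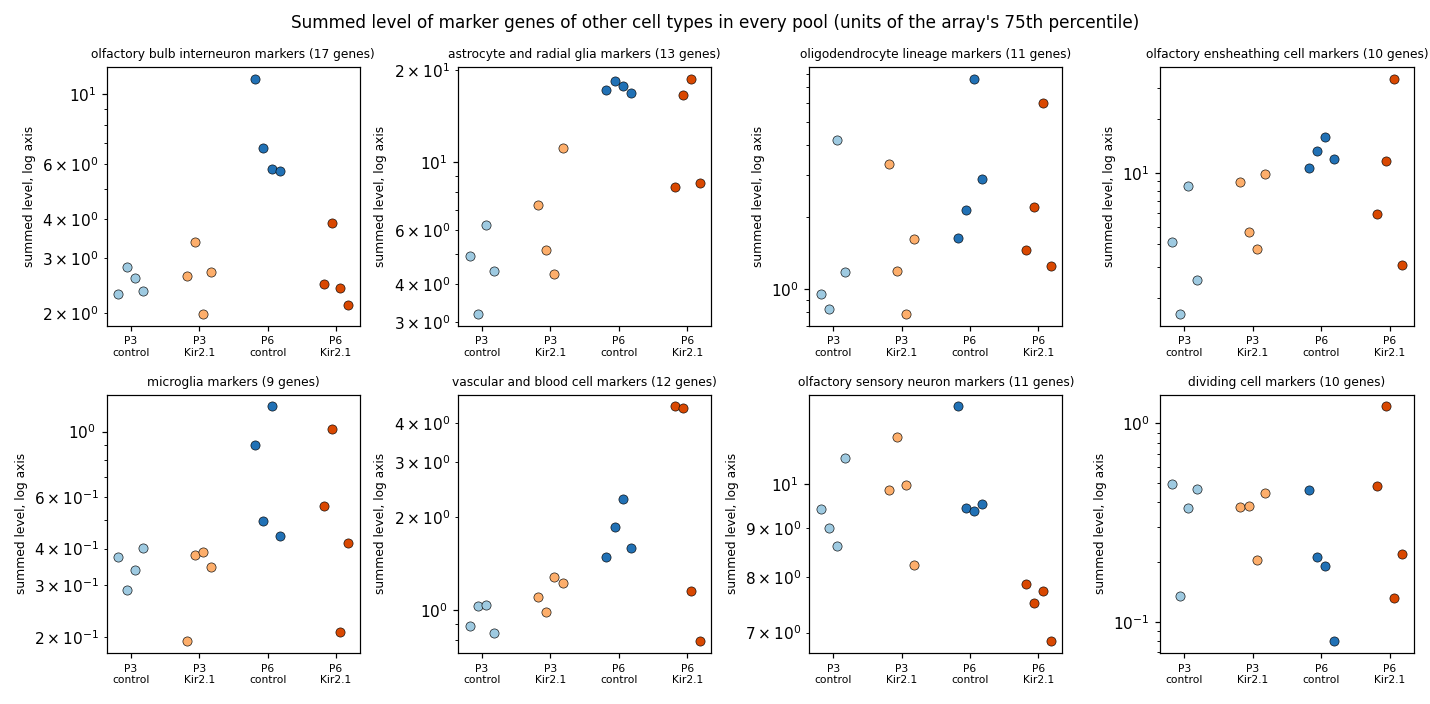
Summed linear level (y axis, log scale, in units of each array's 75th percentile) of 8 marker lists of other cell types in each pool, by group on the x axis. Interneuron markers lie between 5.67 and 11.2 in P6 control pools and at or under 3.88 in all other pools.

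The remaining lists gave no limma call with Kir2.1 at either age, against 0.0125% of all probes at P3 and 1.61% at P6. Oligodendrocyte lineage markers summed at P3 to 0.823 to 4.22 (control) and 0.783 to 3.35 (Kir2.1), and at P6 to 1.63 to 7.58 and 1.25 to 6.03. Olfactory ensheathing cell markers summed to 1.63 to 8.53, 3.78 to 9.91, 10.73 to 15.85 and 3.06 to 33.5 in the same order. In control cells 8 of 8 tested had a positive age change and 2 were called, against 2.3% of all probes. Olfactory sensory neuron markers summed to 8.61 to 10.6, 8.22 to 11.2, 9.36 to 12.03 and 6.86 to 7.86. Vascular and blood cell markers summed to 0.843 to 1.04, 0.986 to 1.28, 1.48 to 2.29 and 0.794 to 4.53. P6 Kir2.1 pools 1 and 2 had sums of 4.53 and 4.50, and pools 3 and 4 had 1.15 and 0.794. The part of this vascular signal in the P6 Kir2.1 results was not tested. Microglia markers summed to 0.194 to 1.22 over all pools. Dividing cell markers summed to 1.22 in P6 Kir2.1 pool 2, with 9 of 10 genes well above background. In all other pools they summed to 0.0797 to 0.495. The part of this dividing cell signal in the P6 Kir2.1 results was not tested.

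The gene with the lowest p in each of these lists is given with its log2 change. At P3 it was Mbp (-1.78, adjusted p = 0.862), Apod (3.30, adjusted p = 0.368), C1qb (0.78, adjusted p = 0.732), Col1a1 (3.35, adjusted p = 0.636), Cnga2 (-1.12, adjusted p = 0.807) and Mcm2 (-2.05, adjusted p = 0.837). At P6 it was Olig2 (-3.20, adjusted p = 0.211), Npy (-3.42, adjusted p = 0.434) and Cnga2 (2.01, adjusted p = 0.0834) in the oligodendrocyte, ensheathing and sensory neuron lists. In the other 3 lists 1 group had no pool well above background, so the difference is a bound. With Kir2.1 at P6 C1qc was at least 7.52-fold lower (adjusted p = 0.0857), Esam at least 6.12-fold higher (adjusted p = 0.0721) and Mcm2 at least 5.36-fold higher (adjusted p = 0.0601), none of them called. In the brighter group only 3 of 4 pools were well above background for C1qc and for Esam, so their bounds are not strict. Over both ages C1qc passed the filter of 4 arrays only through control pools and Esam only through Kir2.1 pools. Each was thus tested only through the groups where it was higher, which limits what these differences show.

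The genes whose pattern over the 16 arrays was most like each of 7 members were found by Pearson's r among 7563 named probes well above background on all arrays. Lbhd2, Lhx1 and Lhx5 were left out, since none was well above background on all 16 arrays. These values describe arrays that share scaling, slides and amplification, and no p is given. For Tbx21 the nearest were Nsf (0.894), a fusion ATPase of vesicle traffic, Trp53i11 (0.892) and Nrgn (0.876), a calmodulin-binding protein of neurons. For Doc2g they were Plec (0.895), Nlgn2 (0.887), a postsynaptic adhesion protein, and Napb (0.873), a partner of Nsf. With group means removed, r was 0.746 for Nsf with Tbx21 and 0.89 for Plec with Doc2g.

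For Cdhr1 the nearest were Rnf14 (0.866), Ldhb (0.828) and Hsp90aa1 (0.819), and for Tbr1 Mllt1 (0.798), Ddx56 (0.793) and Slc39a1 (0.787). Each Eomes probe had neighbours of its own, Ddx1 (0.899), Plppr1 (0.89) and Mif (0.886) for A_55_P2150717, and Ppp2r1a (0.922), Cacybp (0.892) and Txnl4a (0.884) for A_55_P2184434. Slc17a7 was nearest to Pced1b (0.807), Pomgnt2 (0.799) and Ift88 (0.751). Slc17a6 was nearest to Mosmo (0.867), Slc25a12 (0.866) and Hnrnpa3 (0.866). The 2 transporters thus shared none of their 3 nearest genes, nor did the 2 Eomes probes.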

How the data were processed

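The 16 samples were 1-colour Agilent arrays (Cy3) of pooled, amplified mitral cell cDNA. The deposited intensity values are those of Agilent Feature Extraction 10.7.3.1, per the file headers, with its background-subtracted processed signal and its flags for each spot. The series value table deposited by the authors holds the same intensity divided by each array's 75th percentile over gene spots (ratio 1 to 1.001) on a linear scale, with medians of 0.0395 to 0.13; it is not centred by gene, and it was used as an alternative.

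Spots of a probe were averaged, control spots and outlier spots were left out (83 probes lost all spots on an array), and log2 of the processed signal was scaled as given above. Of 55681 probes 28116 carried a RefSeq accession, and 26582 were named through the RefSeq gene table. Changes were fitted per probe with limma 3.58.1 (R 4.3.3) on the 4 group means of all 16 arrays, with 12 residual and 1.64 prior degrees of freedom, without a replicate block. The code was tested on simulated data. The number of arrays limits the precision. The highest correlation of any 2 arrays was 0.874, and no 2 arrays held the same values. The scanner files used here hold no mean signal column, so normexp (offset 50) was run on the median signal instead of the planned mean.

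The text names all members; from the other lists, those called in a Kir2.1 comparison (up to 4 per list) or else the 1 with the lowest p; and the 3 genes most like each member above background on all arrays by Pearson's r. Exceptions are stated. The members and lists were chosen with earlier results of these data known. Alternatives covered scaling, normalization, background, the deposited table, a floor, filters on dim probes, 1 probe per gene, the variance model, a replicate block, the arrays of a comparison alone, and leaving out each pool.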

Additional observations from a re-analysis of the deposited data

Results flagged for a closer look

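In 2 groups a single pool stood away from the other 3 by more than Dixon's 95% critical value for 4 samples, a rule that flags about 1 in 20 groups by chance. Slc17a7 read -1.30 in P3 Kir2.1 pool 2, above the other 3 pools of the group at -2.39 to -2.25. Lhx1 read -9.07 in P3 control pool 2, below the other 3 at -7.63 to -7.36, and no pool of that group was well above background.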

How the results depend on the processing

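Over 50 changes of tested member probes and all alternatives, 1276 of 1335 values kept their side of the threshold, 53 lost a call and 6 gained one. No called change reversed, but 37 of the uncalled values changed sign, 31 of them with a pool left out. The cause of the shifts was not tested. Member calls with no filter on dim probes were 0 (Kir2.1 at P6), 0 (age in control cells) and 1 (age in Kir2.1 cells). With 1 probe per gene, where the called Eomes probe is replaced by the brighter one, they were 0 at P6 and 1 for age in control cells. Fitted on the arrays of a comparison alone they were 0, 1 and 1, and with quantile normalization 1 for age in Kir2.1 cells. Leaving out 1 pool gave 0 member calls at P3, 0 to 1 at P6, 0 to 3 for age in control cells, 1 to 2 for age in Kir2.1 cells and 0 for the interaction.

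Same-numbered pools of different groups did not deviate together (24 correlations of -0.0282 to 0.0246). This gave no sign of pairing but cannot exclude it, since the labels do not say which animals or litters gave a pool. The replicate number was also the column of the array on its slide. With a replicate block the member calls were 0 at P6 and 1 for age in control cells, and calls over all probes were 0 at P3, 189 at P6, 345 for age in control cells, 59 for age in Kir2.1 cells and 9 for the interaction. The Eomes calls had adjusted p of 0.0716 at P6 and 0.0584 for age under this block, and no other member call changed with it.

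Over all probes, calls at P3 were 10 with scaling over all probes, 11 with normexp, 10 in the deposited table, 13 with a floor, 13 with a filter at 8 arrays, 13 with an intensity trend and 31 on the arrays alone. At P6 they were 765 with normexp, 217 with no filter, 739 with a trend and 22 alone; for age in control cells 327 with no filter, 1022 with a trend and 185 alone. For age in Kir2.1 cells they were 126 with quantile normalization, 309 with a trend and 29 alone, and for the interaction 34 with normexp and 113 with a trend. Leaving out 1 pool gave 0 to 15, 190 to 454, 220 to 599, 31 to 180 and 11 to 42 in the same order of comparisons. Higher against lower calls at P6 went from 197 and 189 to 314 and 117 with scaling over all probes, 232 and 149 with quantile normalization, 276 and 489 with normexp and 302 and 118 in the deposited table. For age in Kir2.1 cells they went from 88 and 112 to 89 and 51, 78 and 48 (quantile) and 87 and 51 (deposited). Scaling over all probes moved the median change at P6 from -0.11 to 0.11. Tbr1 at P6, never called, then changed sign to 0.03.

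Lhx1, Lhx5, the second Tbr1 probe and Lbhd2 in P3 Kir2.1 cells lay near background, which limits what their values show. Alternatives were run for the members and the counts, not for single genes of the other lists. The interaction could not be fitted on the arrays of a comparison alone.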
